A study of Mus musculus with 8 samples.

Results

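The cytoplasmic ribosomal protein genes described here are 84 of the 24421 gene symbols counted in naive CD4+ T cells of the mouse. They were chosen by name alone: symbols beginning Rpl or Rps followed by a number, with Rpsa, Rplp0, Rplp1 and Rplp2, and without the ribosomal S6 kinases. The set holds 51 genes of the large subunit and 33 of the small subunit, on 19 chromosomes. The name rule also takes paralogs such as Rpl22l1 and Rps27l, and it leaves out some other genes for ribosomal proteins, such as Fau, Gnb2l1 (RACK1) and Rpl36al.

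The cells came from the spleen of C57BL/6 mice aged 6 to 8 weeks and described as male. A commercial isolation kit for naive T cells was used, and the RNA was sequenced as paired ends. The study compared mice with an intact Pcbp1 gene and Pcbp1 fl/fl mice carrying Cd4-Cre, a recombinase driven by the Cd4 promoter that deletes floxed genes during T cell development. PCBP1, or hnRNP E1, is an RNA-binding protein that prefers C-rich sequences. Each title, E1KO and E1WT, has 4 libraries, and a library held between 28264655 and 36738202 counts in genes. The genotype field gives Pcbp1+/+ Cd4-Cre to every library titled E1KO and Pcbp1 fl/fl Cd4-Cre to every library titled E1WT, the reverse of the titles. By that field all 8 libraries carry Cd4-Cre. Groups are named by title throughout, and every fold is E1KO over E1WT.

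Pcbp1 lay at 38.8 to 42.4 CPM (the count of a gene scaled by the library's total over genes) in the E1KO libraries and at 196 to 240 CPM in the E1WT libraries, which goes with the titles. Xist, the RNA of the inactive X chromosome, lay at 378 to 433 CPM in E1KO and at 0.54 to 2.82 CPM in E1WT, which goes against the label of male mice in the former. Ddx3y, on the Y chromosome, was present in both, with 52.7 to 59.1 CPM in E1KO and 101 to 111 CPM in E1WT. Kdm5d, Eif2s3y and Uty, also on the Y chromosome, were present in both and lower in every E1KO library. Each E1KO library thus held both Xist and RNA of the Y chromosome, and none read as purely male or purely female. The sex of the source, as read from these genes, differed by title in this sense. Sex cannot be told apart from Pcbp1 in any fold given here. Of 12 genes that define CD4+ T cells, 11 matched a symbol in the files, and their summed level was 6627 to 6846 CPM in E1KO and 7261 to 7439 CPM in E1WT. At an adjusted p under 0.05 in edgeR's quasi-likelihood test, which called 12.2% of all genes higher and 11.1% lower, 12 of 14 myeloid and dendritic markers were higher in E1KO, with sums of 178 to 195 CPM against 82.2 to 87.6 CPM. Of 7 tested erythroid markers 5 were higher, with sums of 177 to 222 CPM against 62.8 to 88.1 CPM, while the 4 globin genes of that list were listed at 0 in every library. Of 8 tested NK cell markers 4 were higher, with sums of 169 to 183 CPM against 136 to 148 CPM. Of 6 plasma cell markers 1, Jchain, was higher, with sums of 890 to 1102 CPM against 597 to 812 CPM. Of 8 B cell markers 1 was higher and 1 lower, with overlapping sums of 240 to 261 CPM against 218 to 251 CPM. Of 2 CD8+ T cell markers 0 were higher and 1 was lower, with sums of 20.5 to 28.8 CPM against 24.6 to 30.7 CPM. The part of these differences in the ribosomal protein values was not tested. In such bulk RNA, fewer cells of a type and less RNA per cell cannot be told apart.

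Ribosomal proteins assemble with ribosomal RNA in the nucleolus into a small subunit, which decodes mRNA, and a large subunit, which joins amino acids. Most of these proteins are needed in about equal amounts. The mRNAs of ribosomal proteins are known for a 5′ terminal oligopyrimidine tract, called TOP, that starts with C. It lets mTOR signalling and LARP1 control the translation of these mRNAs together. Naive T cells are small and quiescent, and they raise ribosome production when activated.

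The annotated start regions show this feature for part of the family, and the count rests on where the start is annotated. RefSeq (GRCm38.p6) held promoter windows of 63 of the 84 genes, each from 250 bases before to 50 bases after the start. A C within 5 bases of the start, followed by at least 4 pyrimidines, was found for 29 of the 63, or 46.0%, against 21.2% of all 27025 genes in that table, where a gene with several windows counted if any of them had it. The 4 genes below have such a tract, which is in capitals in 30-base windows centred on the start, and they are printed because they show the motif in its plainest form.
Rps6: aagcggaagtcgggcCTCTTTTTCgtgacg
Rpl28: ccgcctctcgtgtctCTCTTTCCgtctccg
Rpl15: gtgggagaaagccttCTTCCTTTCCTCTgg
Rps10: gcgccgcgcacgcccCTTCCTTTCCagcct
These windows lie at chr4:86857353-86857382 (minus strand), chr7:4792950-4792979 (plus), chr14:18270972-18271001 (minus) and chr17:27635230-27635259 (minus). Rps6 encodes the small-subunit protein that S6 kinase phosphorylates, Rpl28 and Rpl15 encode large-subunit proteins, and Rps10 encodes a small-subunit protein.

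No such tract stood at the annotated RefSeq start of Rpsa, Rps28 or Rpl7l1. A tract beginning more than 5 bases from that start was not counted, so these mRNAs may still carry one. Whether a tract goes with the fold was not tested. These 3 genes are printed because Rpsa was called, Rps28 had the lowest fold among well-counted members and Rpl7l1 was the member higher in every E1KO library.
Rpsa: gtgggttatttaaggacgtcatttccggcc
Rps28: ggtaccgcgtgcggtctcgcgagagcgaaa
Rpl7l1: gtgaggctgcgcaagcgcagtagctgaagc
They lie at chr9:120127751-120127780 (plus), chr17:33824548-33824577 (minus) and chr17:46782642-46782671 (minus). Other motifs were searched in the whole windows on both strands. CCGGAA, the core of sites for ETS factors, was found for 35 of the 63 genes (55.6%) against 16.7% of all genes in the table. AAGATGG was found for 10 (15.9%) against 7.28%, and TATAAA for 7 (11.1%) against 15.7%. CCCC, searched only in the bases after the start on the coding strand because PCBP1 binds C-rich RNA, was found for 14 (22.2%) against 17.5%.

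Levels per kb of transcript were high and fairly even for most of the family. CPM per kb divides a gene's CPM by the length of its shortest principal coding transcript. Of the 84 genes, 73 had a mean of at least 100 CPM, and these spanned a 13.8-fold range, from 310 CPM per kb for Rps20 to 4266 CPM per kb for Rplp1, with a median of 1634. The low end rests on the transcript chosen for Rps20, which has 3706 bases, while its level before division by length, 1149 CPM, was near the median of 1177 CPM. The next lowest was Rpl37 at 584 CPM per kb, and without Rps20 the range was 7.30-fold. The medians were 1489 CPM per kb for the 43 large-subunit and 1725 for the 30 small-subunit genes among them. The highest levels were those of Rplp1, with 3414 to 4908 CPM per kb over the 8 libraries, and Rps14, with 3617 to 4522. Rpl13a followed with 2770 to 3373 CPM per kb and Rplp0 with 2730 to 3200. Rplp1 and Rps14 overlapped in their ranges, as did Rpl13a and Rplp0, so the order within each of these pairs is not beyond their spread. Rplp2 (2440 to 3234 CPM per kb) and Rpl13 (2429 to 3105) overlapped both Rpl13a and Rplp0, so the places of Rpl13a and Rplp0 are not beyond the spread either. Rplp0 and Rplp1 encode proteins of the acidic stalk that brings elongation factors to the ribosome, Rps14 encodes a small-subunit protein, and Rpl13a a large-subunit protein.

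**Figure D1:**
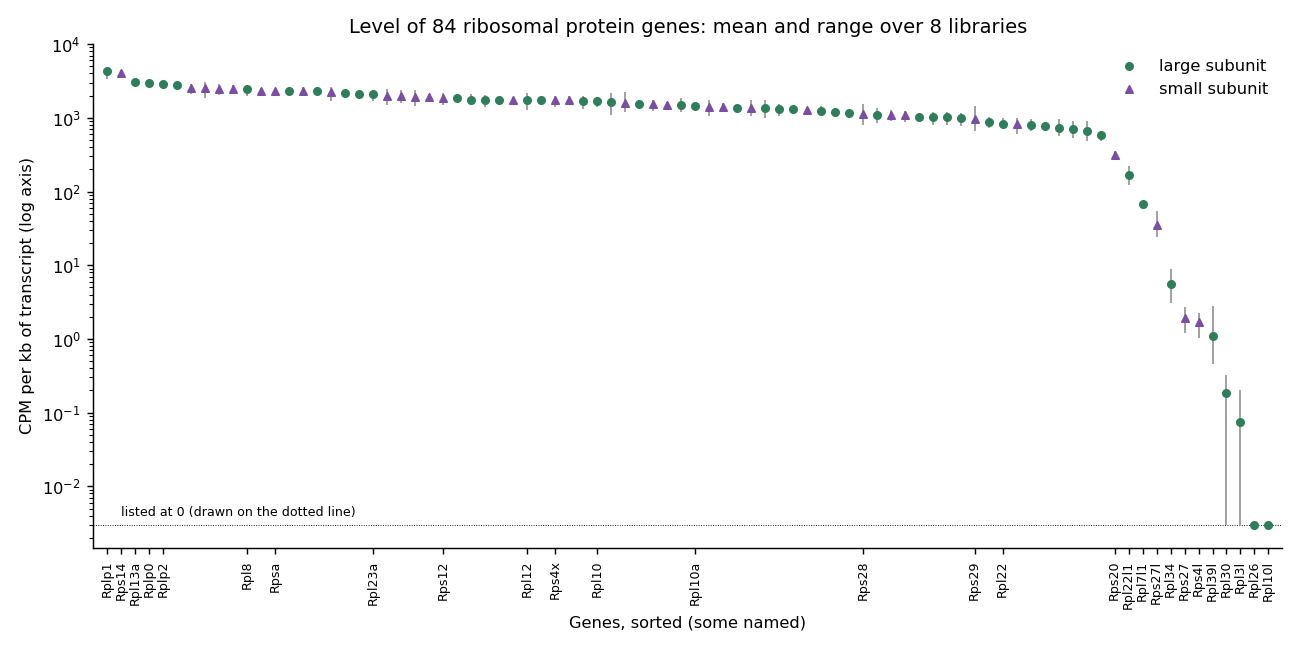
Level of each of the 84 genes in CPM per kb of transcript on a log axis, with points for the mean and lines for the range over 8 libraries, circles for the large and triangles for the small subunit, and names for some of the genes described. The 73 genes from Rplp1 to Rps20 lie between 4266 and 310 CPM per kb, and the other 11 lie lower, with Rpl26 and Rpl10l listed at 0.

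Below the 73 lay 11 genes. The paralogs Rpl22l1, Rpl7l1 and Rps27l were the highest of them, at 169, 67.8 and 34.9 CPM per kb, and are described with their counterparts below. Others are paralogs of low count. Rpl3l, a paralog of Rpl3 known from muscle, had 0 to 8 counts in a library. Rpl10l and Rpl39l are paralogs known from testis: Rpl10l was listed at 0 in all 8 libraries and Rpl39l had 8 to 44 counts. Rps4l, a paralog of Rps4x, had 29 to 58 counts.

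The other 4 encode standard ribosomal proteins. Rpl26 was listed at 0 in all 8 libraries, Rpl30 had 0 to 6 counts, Rps27 had 14 to 34 and Rpl34 had 54 to 136. For each of these genes a near-identical retrocopy elsewhere in the genome was also a row of the files, at 0 or 1 counts. Of the 75-base windows of its transcript, Rpl26 shared 47.4% with Gm15772, Rpl30 shared 40.1% with Gm12191, Rpl34 shared 41.4% with Rpl34-ps1 and Rps27 shared 98.5% with Rps27rt. The stretches below are the coding strand of the member in GENCODE M21, with capitals for the bases identical in the copy and lower case where the identity ends. They are shown because a 75-base read that lies within the capitals matches both genes.
Rpl26: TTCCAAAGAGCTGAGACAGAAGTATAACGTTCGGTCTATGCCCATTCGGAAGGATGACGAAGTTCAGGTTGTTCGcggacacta
Rpl34: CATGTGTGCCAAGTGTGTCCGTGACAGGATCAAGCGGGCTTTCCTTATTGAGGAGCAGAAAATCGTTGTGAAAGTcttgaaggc
Rps27: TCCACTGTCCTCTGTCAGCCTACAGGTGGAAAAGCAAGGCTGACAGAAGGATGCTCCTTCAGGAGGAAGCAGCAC
These are coding bases 102 to 185 of Rpl26, 243 to 326 of Rpl34 and 178 to 252 of Rps27. The identical run was 176 bases in Rpl26 and 185 in Rpl34, and in Rps27 it was the whole coding sequence of 252 bases.

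Well-counted members shared windows too. In all, 12 members shared at least 30% of their windows with another gene in the files, a limit chosen after the values were seen, and 4 of them lay under 5 CPM. Rps23, which shared 40.9% with Gm5148, had a mean of 1294 CPM, and Rpl14, which shared 42.6% with Rpl14-ps1, had 1032 CPM. Over all annotated transcripts, including pseudogenes that are no row of the files, 80 of the 84 members had windows found in another gene's transcripts. More than 50% of the windows were found there for 42 members. These counts, and the 12 members above, include genes that overlap a member at its own place in the genome, where the shared bases are no copy. Fam69a overlapped 953 exon bases of Rpl5 and Wdr38 overlapped 821 of Rpl35, both on the opposite strand. The levels of Rpl26, Rpl30, Rpl34 and Rps27 are therefore levels of what was counted, and the part of read placement in them was not tested.

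Few of the family differed between the titles. Of the 80 members that passed the expression filter, edgeR's quasi-likelihood test called 0 higher and 1 lower in E1KO at a Benjamini-Hochberg adjusted p under 0.05, against 23.3% of all 13333 genes tested (12.2% higher and 11.1% lower). Those shares stand for 1623 genes higher and 1485 lower. With library totals alone they were 2257 and 1045, and with libraries scaled to the summed ribosomal protein counts they were 1570 and 413, where the median of all genes was 0.10 on the log2 scale. At an unadjusted p under 0.05, 9 members were lower and 0 higher, or 11.25%, against 35.9% of all genes (17.7% lower and 18.3% higher). On TMM-scaled log2 CPM, 2 members (Rpl10a and Rpsa) were lower and 1 (Rpl7l1) higher in every E1KO than in every E1WT library, or 3.75%, against 26% of all genes (12.1% lower and 13.9% higher).

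The member called was Rpsa, on chromosome 9 (chr9:120127689-120132369, plus strand, GRCm38), which encodes a small-subunit protein also known as the laminin receptor. It lay at 3490, 3451, 3514 and 3697 CPM in E1KO and at 3956, 3957, 3870 and 3766 CPM in E1WT. Every E1KO library was below every E1WT library. edgeR's quasi-likelihood test gave a log2 fold of -0.20 ± 0.05 (SE, n = 4 each) and an adjusted p of 0.0149. The call was lost in 5 of the alternatives, among them without the E1KO 2 library (adjusted p = 0.0552 in edgeR), without the E1WT 1 library (0.0526), with library totals alone (0.0663) and with libraries scaled to the family sum (0.462). Rpsa also had the smallest spread within titles of the 73 well-counted genes, with an SD of 0.040 on the log2 scale against a median of 0.165.

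Small negative folds prevailed in the rest of the family. Of the 80 tested members 67 had a negative log2 fold, or 83.75%, against 49.1% of all genes, and the median was -0.09 against 0.0065. The members moved together from library to library, as described below, so these signs are not independent of one another. Scaling moves all genes alike: the members' median minus that of all genes was -0.10 with TMM, with library totals alone and with libraries scaled to the family sum. Among the 73 well-counted genes 63 folds were negative and 10 positive, and the lowest was -0.37 for Rps28, with a median of -0.08 for the large and -0.12 for the small subunit. Their 95% intervals had a median half-width of 0.21, and 63 of the 73 lay wholly within 0.5 of 0 on the log2 scale.

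**Figure D2:**
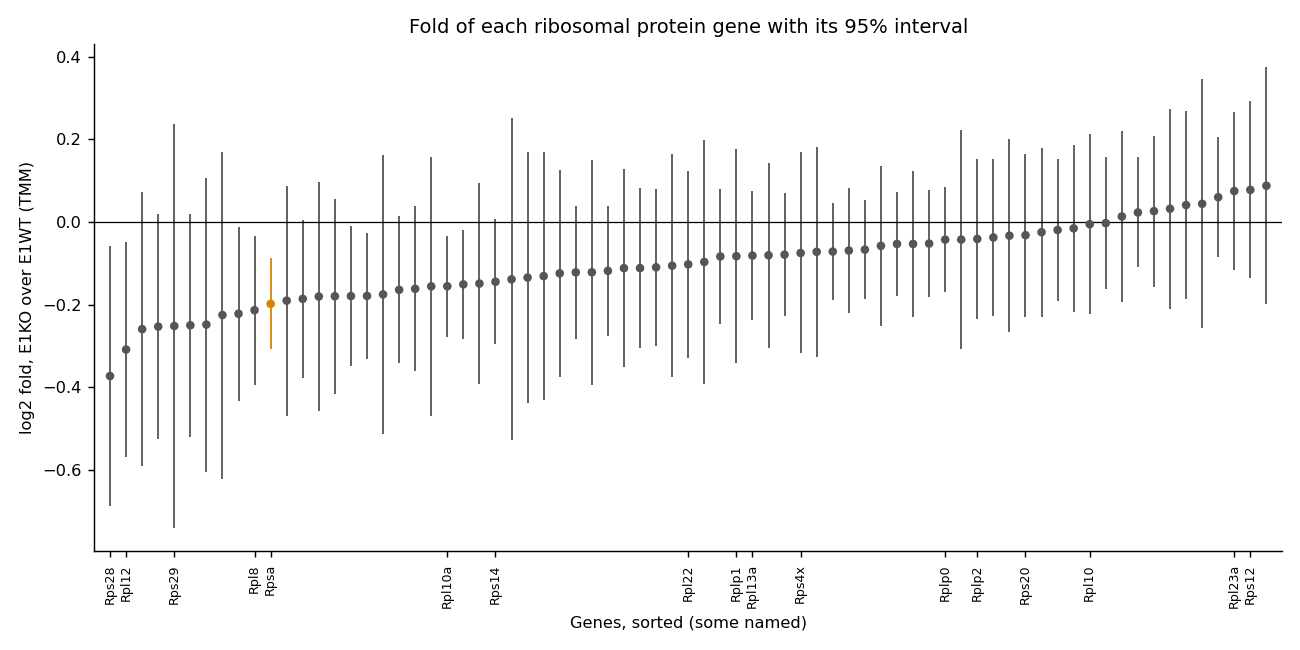
The log2 fold of E1KO over E1WT for the 73 genes with at least 100 CPM, sorted, with lines for the 95% interval of the edgeR fit, Rpsa, the member called, in orange, and names for some of the genes described. The lowest fold is -0.37 (Rps28), and 63 of the 73 are negative.

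The lowest folds among well-counted members were those of Rps28 and Rpl12. Rps28, a small-subunit protein, lay at 256, 213, 306 and 316 CPM in E1KO and at 324, 416, 358 and 258 CPM in E1WT. The E1WT 4 library lay within the range of the E1KO libraries. In edgeR's test it had a log2 fold of -0.37 ± 0.14 (SE) at an adjusted p of 0.0831. Rpl12, a protein at the base of the large subunit's stalk, lay at 1603, 1850, 2267 and 2130 CPM in E1KO and at 2414, 2735, 2305 and 1862 CPM in E1WT. Here too E1WT 4 lay among the E1KO values, and the log2 fold was -0.31 ± 0.12 with an adjusted p of 0.0822 in edgeR's test. At the other end, Rps12, a small-subunit protein, lay at 841 to 1080 CPM in E1KO and 734 to 985 CPM in E1WT, so the titles overlapped, and its log2 fold was 0.08 ± 0.10. Rpl10a, chosen after its values were seen, lay at 965 to 1092 CPM in E1KO and 1053 to 1116 CPM in E1WT, with a log2 fold of -0.16 ± 0.06 and an adjusted p of 0.0644 in edgeR's test.

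The widest folds among tested members belonged to low-count genes. Rpl34, with 1.48 to 4.24 CPM, had a log2 fold of 0.48 ± 0.29, and Rps27, with 0.42 to 0.93 CPM, had -0.60 ± 0.33. Rpl39l, with 0.25 to 1.55 CPM, had -1.03 ± 0.50. For all 3 the titles overlapped and the 95% interval held 0.

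The number called depended on single libraries and on the tool. Without the E1WT 4 library edgeR called 9 members lower and 0 higher, or 11.25% lower, against 9.26% of all genes. Among them were Rpsa, Rpl12, Rpl13, Rpl35a, Rpl8, Rps10, Rps15a and Rps28, a list taken after the values were seen. Without E1KO 1 and E1WT 4 together the same 9 were called, against 11.8% of all genes. It was 0 without E1KO 2 (8.18% of all genes lower), 0 without E1WT 1 (7.52%) and 0 with library totals alone (7.84%), and it was 2, Rpl10a and Rpsa, without E1KO 4 (7.47%). DESeq2 called 7 lower (8.75%, against 14.2% of all genes), and after removal of the trend with exon length 20 were called lower (25%, against 16.3%).

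The family's share of the counts varied more within the titles than between their means. It held 8.72%, 9.40%, 10.6% and 10.8% of gene counts in E1KO 1 to 4, and 10.2%, 11.2%, 10.3% and 8.67% in E1WT 1 to 4. The means were 9.86 ± 0.98% and 10.1 ± 1.06% (SD, n = 4 each), a difference of -0.23 percentage points that was smaller than either SD. It was 0.149 percentage points without E1KO 1 and 0.141 without E1WT 2, so its sign rests on single libraries. E1KO 1, E1KO 2 and E1WT 4 were the low libraries and E1WT 2 the high one. In E1KO 1 only 1 of the 73 well-counted genes stood above its own mean over libraries, in E1KO 2 it was 2 and in E1WT 4 it was 3. In E1KO 4 it was 71, and in E1WT 2 and E1WT 3 it was 72 each.

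**Figure D3:**
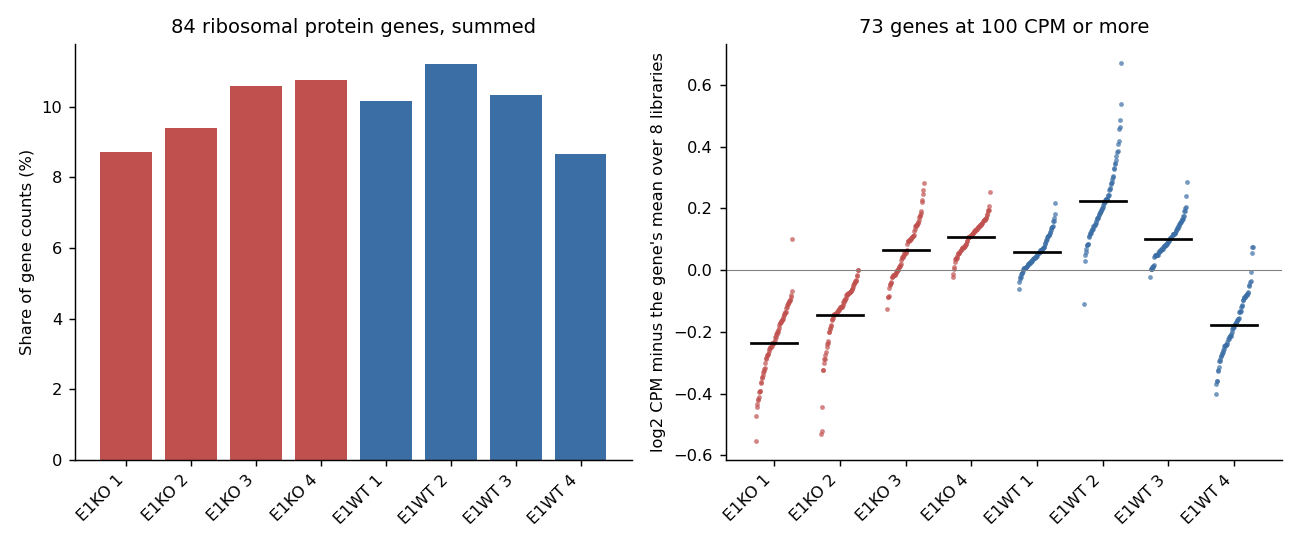
Left, the share of gene counts held by the 84 genes in each library; right, each of the 73 well-counted genes as its log2 CPM minus its mean over 8 libraries, with bars for the mean of the genes. The mean is lowest in E1KO 1 (-0.24) and E1WT 4 (-0.18) and highest in E1WT 2 (0.22).

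Members moved together within titles. Of the variance within titles of the 73 well-counted genes, 76.5% lay in their mean per library. The correlation between pairs of these genes, taken within titles over the 8 libraries, had a median of 0.94. It covers 2628 pairs that share the same libraries and depths. By the same measure the median was 0.72 for 77 genes of the mitochondrial ribosome, 0.31 for 23 other TOP mRNAs and 0.036 for 75 ribosome biogenesis genes. Those lists took every tested gene without the cut at 100 CPM, so the medians are not matched in level. Once the mean of the 73 genes per library was removed, their median SD within titles fell from 0.165 to 0.066 on the log2 scale. The least spread was left in Rps12 (0.021), Rpl23a (0.025), Rpl27a (0.026) and Rplp2 (0.028), and the most among well-counted genes in Rps29 (0.275). Rps29, a small-subunit protein with one of the short transcripts, lay at 267, 256, 450 and 414 CPM in E1KO and at 362, 564, 395 and 262 CPM in E1WT, so it was lowest in the same 3 libraries as the family.

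In 2 of the 3 libraries where the family was low, short genes outside the family were low too. The Spearman correlation of a gene's deviation with its exon length, over genes outside the family, was 0.217, -0.018, -0.319 and -0.224 in E1KO 1 to 4, and 0.085, -0.257, 0.096 and 0.313 in E1WT 1 to 4. The largest positive values belonged to E1WT 4 and E1KO 1, where the family was lowest, while E1KO 2, the next lowest, was near 0. Within the family, the 24 genes with transcripts of up to 597 bases had a median fold of -0.14, and the 25 with at least 878 bases had -0.08. The part of length in the family's level was not tested. The share of counts in rows for no gene was 28.21 to 30.77% in E1KO and 33.29 to 36.98% in E1WT, without overlap, and that of reads outside any annotated feature was 15.4 to 17.4% and 19.1 to 22.4% (two-sided exact permutation p = 0.0286 for each). The share of reads aligned to several places was 11.09 to 11.96% in E1KO and 12.55 to 13.21% in E1WT, without overlap (two-sided exact permutation p = 0.0286, the smallest that 4 against 4 can give), and the part of these shares in the members' values was not tested either.

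**Figure D4:**
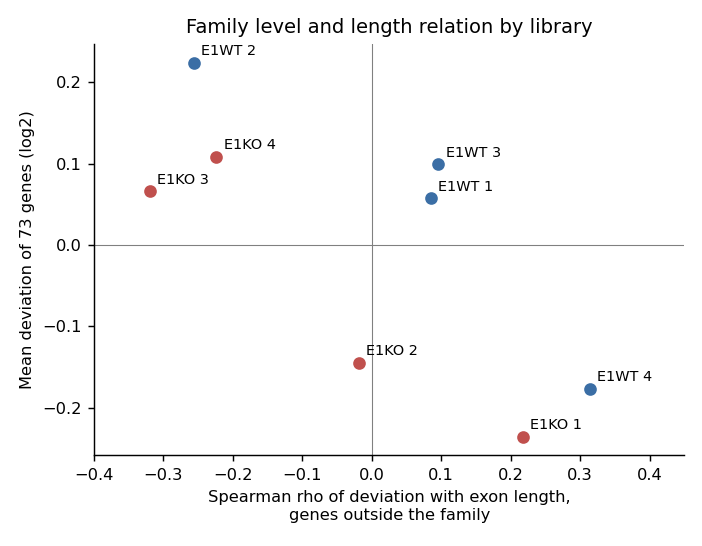
For each library, the mean log2 deviation of the 73 well-counted genes (vertical axis) against the Spearman correlation of deviation with exon length over genes outside the family (horizontal axis), with E1KO in red and E1WT in blue. E1KO 1 and E1WT 4 lie at the lower right, with correlations of 0.217 and 0.313.

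Relative to the family sum, the share of members that separated the titles was near the share of all genes. Per 1000 ribosomal protein counts, 7 members were lower in every E1KO than in every E1WT library and 11 were higher, or 22.5% in all. By the same measure it was 20.8% of all genes (4.46% lower and 16.4% higher). Division by the family sum takes the shared movement out of the members and puts it into other genes. The shares of members and of all genes are therefore not like for like. With libraries scaled to the family sum, edgeR's quasi-likelihood test called 0 of the 80, against 14.9% of all genes. As a description of members picked with their values in view, Rpl8, which lies at the peptidyl transferase centre, held 19.6, 20.6, 19.6 and 19.8 per 1000 family counts in E1KO and 22, 21.2, 21.6 and 21.6 in E1WT. Rpl23a, at the exit of the peptide tunnel, held 12.3, 12.7, 12.5 and 12.5 in E1KO and 11, 11.2, 11.1 and 11 in E1WT.

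Paralogs were compared with their standard counterpart within each library, which does not depend on scaling. Of 7 pairs 5 passed the filter in both genes, and each was compared by a two-sided exact permutation test. With 4 against 4 libraries, a single pair cannot go below 0.143 after adjustment over the 5, and at least 3 pairs at the smallest p would be needed to pass 0.05. Rpl22 binds RNA and is needed for the development of αβ T cells, and Rpl22l1 is its paralog. Rpl22l1 amounted to 20.0%, 24.7%, 26.2% and 23.8% of the Rpl22 count in E1KO and to 22.6%, 26.1%, 22.1% and 21.9% in E1WT. The titles overlapped, with a difference of 0.03 in the log2 ratio (exact p = 0.83). Rpl7l1 amounted to 6.51%, 6.30%, 6.52% and 5.72% of the Rpl7 count in E1KO and to 5.79%, 5.23%, 5.34% and 5.62% in E1WT. Only E1KO 4 fell within the E1WT range, and the difference in the log2 ratio was 0.19 (exact p = 0.0571, adjusted 0.143). By plain CPM Rpl7l1 was higher in every E1KO library, at 91.4, 92.5, 102 and 91.6 CPM against 87.2, 87.8, 82.2 and 75.5 CPM, with a log2 fold of 0.12 ± 0.06 and an adjusted p of 0.172 in edgeR's test.

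The other pairs rest on low counts. Rps27l, a paralog induced by p53, lay at 15.5 to 26.8 CPM in E1KO and 11.9 to 18.3 CPM in E1WT, with a log2 fold of 0.32 ± 0.18. Its log2 ratio to Rps27 was 0.89 higher in E1KO (exact permutation p = 0.0571, adjusted 0.143). The titles overlapped in this ratio, and its denominator was at most 34 counts. Rpl39l was 0.064% to 0.144% of Rpl39 in E1KO and 0.091% to 0.314% in E1WT (exact p = 0.171, adjusted 0.286). Rps4l was 0.059% to 0.095% of Rps4x in E1KO and 0.071% to 0.089% in E1WT (exact p = 1).

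The 4 members on the X chromosome had no call. Their log2 folds were -0.01 ± 0.10 for Rpl10, which acts in subunit joining, -0.12 ± 0.12 for Rpl36a, -0.18 ± 0.15 for Rpl39 and -0.07 ± 0.11 for Rps4x. Rps4x lay at 1367 to 1844 CPM in E1KO and at 1357 to 1947 CPM in E1WT.

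Ribosomal proteins outside the name rule gave similar values. Of 4 tested, 0 were called in either direction and their median log2 fold was -0.04. Gnb2l1, the scaffold protein RACK1 of the small subunit, lay at 1861 to 2035 CPM in E1KO and 1826 to 1991 CPM in E1WT.

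Other genes of the pathway are given from lists with the same fit, where 23.3% of all genes were called. Of 23 other TOP mRNAs 4 were higher and 1 lower, with a median log2 fold of 0.07. Vim, the intermediate filament vimentin, rose by 0.50 ± 0.05, Pabpc4, a poly(A)-binding protein, by 0.31 ± 0.07, Eif3f, a subunit of an initiation factor, by 0.20 ± 0.05 and Slc25a5, an ADP/ATP carrier, by 0.24 ± 0.07. Of 24 genes listed as regulators of ribosomal protein genes, which include translation factors, mTOR pathway members and transcription factors such as Myc and Gabpa, 3 were higher and 5 lower. Eif4ebp1, the repressor of cap-dependent translation that mTOR inactivates, lay at 9.41, 10.9, 12.9 and 12.3 CPM in E1KO and at 5.45, 5.20, 4.69 and 3.69 CPM in E1WT, without overlap. It rose by 1.2 ± 0.14 on the log2 scale, with an adjusted p of 0.000162 in edgeR's quasi-likelihood test. Eif4e, the cap-binding protein, rose by 0.28 ± 0.06, while Mtor, the kinase itself, had a log2 fold of -0.41 ± 0.07 and Tsc1, its upstream inhibitor, -0.35 ± 0.08, both called lower.

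Of 75 ribosome biogenesis genes 8 were higher and 2 lower, with a median log2 fold of 0.07. Mdn1, the large ATPase that strips assembly factors from the pre-large subunit, lay at 185 to 238 CPM in E1KO and 299 to 415 CPM in E1WT, and its log2 fold was -0.86 ± 0.11. Lyar rose by 0.38 ± 0.08, Taf1c, a subunit of the RNA polymerase I factor SL1, by 0.29 ± 0.06 and Nop14 by 0.21 ± 0.06. Of 77 genes of the mitochondrial ribosome 2 were higher and 0 lower, Mrpl45 (0.43 ± 0.09) and Mrpl9 (0.27 ± 0.07), with a median log2 fold of 0.08. No difference between these lists and the ribosomal protein genes was tested.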

How the data were processed

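The authors deposited raw read counts for each gene symbol in each library. TopHat2 2.1.0, HTSeq 0.9.1 and mm10 appear per the submitters' processing notes, and the annotation and strand setting were not given in the sources used here. Another 5 closing rows for reads given to no gene (28.2% to 37.0% of counts) stayed out of library sizes and tests. Libraries were grouped by title. No label states that they are separate animals, so the p-values cover only a spread between libraries that may be technical. Pairs of one title differed beyond sampling noise (chi-square per degree of freedom 4.10 to 60.1).

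Genes were tested with edgeR 4.0.16 (TMM, count minimum 10, quasi-likelihood, Benjamini-Hochberg at 0.05) in R 4.3.3. Errors of folds are standard errors, and those of CPM or shares are standard deviations. CPM are per library total, and log2 CPM are TMM-scaled with a prior count of 2. Positions and transcripts are from GENCODE M21 (GRCm38), where 23376 symbols matched by name, 670 through an older name and 375 not at all. On simulated data with 13186 genes in the fit, the test of E1KO against E1WT recovered 25% of the genes changed 1.3-fold. It recovered 61.2% of those changed 1.5-fold, 85.7% of those changed 2-fold and 98% of those changed 4-fold. Of 141 calls, 9 fell on unchanged genes. The simulation changed only 48 or 49 genes at each fold and drew each gene independently. In the data 23.3% of genes were called and libraries moved as a whole, so these rates are not the power of the reported test.

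The members and lists were chosen with earlier results of these data known. Genes named are the member called, the 4 highest and 4 lowest by fold, by level per kb and by residual spread, paralog pairs, X-linked members, and in each list up to 4 called genes with the smallest p (2 where none was). A few of these genes are not reported here. All others were picked with their values in view, among them Rps20, Ddx3y and genes named for their sequence or their share of family counts. Alternatives were other scalings and filters, DESeq2 1.42.0, limma-voom 3.58.1, the replicate number, exon length, autosomal genes and libraries left out. For genes of other lists and members picked late they were added after seeing the data.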

Additional observations from a re-analysis of the deposited data

Results flagged for a closer look

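Among the values of members examined singly, the family's share and the paralog ratios, 84 sets of 4 libraries were examined for 1 library far from the other 3, and 3 were found; chance gives about 1 in 20. Rpl7l1 lay at 102 CPM in E1KO 3, against 91.4 to 92.5 CPM in the other E1KO libraries. Rplp0 lay at 3707 CPM in E1WT 4, against 4119 to 4200 CPM in the other E1WT libraries. Rpl22l1 amounted to 26.1% of the Rpl22 count in E1WT 2, against 21.9% to 22.6% in the other E1WT libraries.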

How the results depend on the processing

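The number of members called lower, 1 in the reported setting, was 2 with RLE size factors, 7 with DESeq2, 20 with the exon-length trend removed, 9 without E1KO 1 and E1WT 4 together, and 0 with library totals alone, with libraries scaled to the family sum and with the replicate block; over single libraries left out it ran from 0 to 9. No member was called higher under any of these settings. Scaling to the family sum gave 413 genes lower among all genes. The replicate numbers did not pair the samples: deviations of same-numbered libraries correlated at 0.014, -0.048, -0.035 and -0.099. With the replicate block, 1151 genes were higher and 1005 lower among all genes (7.54% lower), and Rpsa had an adjusted p of 0.0884 in edgeR's test. The family's median log2 fold ran from -0.16 to -0.03 over single libraries left out. The cause of these changes was not tested. Of 694 values of 35 members examined singly under the alternatives, 653 kept their side of the threshold, 36 passed it, 5 (all Rpsa) no longer did, and 0 called values changed direction. Counts of Rpl26, Rpl30, Rps27 and Rpl10l are too low to show a difference of ordinary size.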
